A study of Mus musculus with 2 samples.

Results

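Cd7 (ENSMUSG00000025163) encodes a surface receptor of T cells. Its transcript was followed here in donor T cells from the spleens of allo-HCT recipients, as 1 gene of the 32285 listed. It was read in 14973 kept cells, namely 7179 cells at day +7 and 7794 cells at day +14. Kept cells had 500 to 7500 detected genes and at most 15% mitochondrial UMIs. CD8 cells had at least 2 UMIs of Cd8a and Cd8b1 together and none of Cd4. CD4 cells had at least 1 Cd4 UMI and none of Cd8a or Cd8b1, and are given without Foxp3+ cells. Foxp3+ cells had at least 1 Foxp3 UMI whatever their Cd4 and Cd8 counts, so they overlap the CD8 group. The remaining cells were unclassified. Cd7 was selected on the size of its UMI ratio between the days in these same libraries, so all its levels are a description and carry no test.

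CD7 is a transmembrane glycoprotein of the immunoglobulin superfamily, found on T cells, NK cells and their precursors. It binds SECTM1, for which the mouse has the genes Sectm1a and Sectm1b, and galectin-1, the product of Lgals1. Its cytoplasmic tail can engage PI3K, the lipid kinase upstream of Akt. In T cells it is best known as an early lineage marker and as a costimulatory receptor. Cd7 lies near the distal end of chromosome 11, at chr11:121036747-121039418 on the minus strand in mm10, a span of 2672 bp with 2 annotated transcripts and up to 4 exons. It overlaps Gm11775 on the opposite strand, and Cell Ranger counts reads by strand.

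The study asked how the metabolism of alloreactive T cells changed as acute graft-versus-host disease developed. Irradiated BALB/c mice (H-2d) received T cell-depleted bone marrow and purified splenic T cells from wild-type C57BL/6 donors (H-2b), which the labels call naive and the study's account of these libraries does not. T cells of donor origin, gated as H2Kb+ H2Kd- among TCRβ+ CD45+ cells, were collected at day +7 or day +14, pooled from 5 spleens and made into 1 library per day with 10x Genomics reagents. Both library names carry the word PBS, the labels name no transgene, drug or age for either day, and no day 0 or syngeneic library was analysed here.

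The libraries held 86745047 UMIs at day +7 and 83808218 at day +14 in kept cells, with medians of 9210 and 8144 UMIs per cell. T cell receptor complex transcripts (Cd3d, Cd3e, Cd3g, Trac, Trbc1 or Trbc2) were found in 98.4% and 99% of kept cells. The libraries shared 20 cell barcodes, 17 of them kept. With 1 library per day, the day and the library cannot be told apart. All intervals below are exact 95% intervals that cover counting error only, and none carries the variation between animals. Levels are given as CPM, the Cd7 UMIs of a group scaled to the total UMIs of that group. Shares of cells and per-cell counts were read after thinning cells to 4000 UMIs, so that cells were compared at 1 depth. Shallower cells were left out of these values, 198 at day +7 and 969 at day +14, among them 77 and 411 CD8 cells, 16 and 200 CD4 cells, and 5 and 12 Foxp3+ cells.

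Cd7 was low in CD8 cells at day +7 and high at day +14. The 5771 CD8 cells of day +7 held 3769 Cd7 UMIs, a level of 53.8 CPM (52.1 to 55.5). The 5815 CD8 cells of day +14 held 40319 Cd7 UMIs, a level of 613 CPM (607 to 619). The later level was 11.4-fold higher (11 to 11.8), or 3.51 on the log2 scale. The CD8 intervals of the days lay far apart. Genes used as markers of other lymphocytes that carry CD7 were also read in CD8 cells. Of an NK list (Ncr1, Klrb1c, Eomes and Gzma, none at 0), which summed to 3871 and 351 CPM, Gzma, also a cytotoxic T cell gene, held 3842 and 259 CPM. Eomes, also a CD8 T cell factor, went the other way (21.1 and 91.2 CPM), and Klrb1c was at 6.51 and 0.593 CPM. A γδ T cell list of 6 genes, of which Sox13 was at 0 at day +7, summed to 9.91 and 46.7 CPM. Their part in the Cd7 level was not tested. Among the 6850 genes that reached a mean level of 10 CPM in CD8 cells, 1.85% were higher by at least 2-fold at day +14 and 1.39% were lower. With 1 CPM added to both days, Cd7 stood at rank 4 from the top of these genes. Over all kept cells 1.85% of 6919 genes were higher and 1.26% lower, and Cd7 was at rank 3.

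The share of CD8 cells with a Cd7 UMI went from 20.7% (19.7 to 21.8, n = 5694 cells) to 72.1% (70.9 to 73.3, n = 5404 cells). Droplets of other lineages served as a background. At day +7, 0 of 138 such droplets held a Cd7 UMI after thinning, which allows up to 2.64%, and their unthinned level was 2.34 CPM at a median depth of 21761 UMIs. At day +14, 12% of 75 such droplets (5.64 to 21.6) held one, and their level was 117 CPM (97.9 to 138) at a median depth of 6516 UMIs. Of the 113 unthinned droplets behind this level, 9 also met the CD8 rule and held 72 of the 135 Cd7 UMIs. The 102 droplets that met neither the CD8 nor the CD4 rule, a group set after seeing the data, had 64.5 CPM (48.9 to 83.6), with 16 of their 57 UMIs in 1 droplet, and a thinned share of 7.81% (2.59 to 17.3). CD8 cells, with unthinned median depths of 9519 and 8840 UMIs, were above this background on both days. The level in other-lineage droplets was itself higher at day +14, and its part in the levels of Cd7-poor cells was not tested.

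The distribution over CD8 cells was shifted at day +14 and also covered a wider range of counts. At day +7, 79.3% of CD8 cells had 0 Cd7 UMIs after thinning, 15% had 1, and 1.74% had 3 to 5. At day +14, 27.9% had 0 UMIs, 24.9% had 3 to 5, 13.8% had 6 to 10 and 3.48% had over 10. The mean per cell was 0.289 and 2.85 UMIs, and the median 0 and 2 UMIs. The variance divided by the mean was 1.53 at day +7 and 3.57 at day +14, where 1 is the value for equal cells under counting noise. At the same relative spread between cells this value is larger where the mean is higher. It therefore does not show on which day the relative spread was larger. On both days CD8 cells were less alike in Cd7 than counting noise alone gives. The 10% of cells with the most Cd7 held 62.9% of thinned CD8 Cd7 UMIs at day +7 and 35.5% at day +14. This share also depends on how many cells had 0 UMIs.

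**Figure D1:**
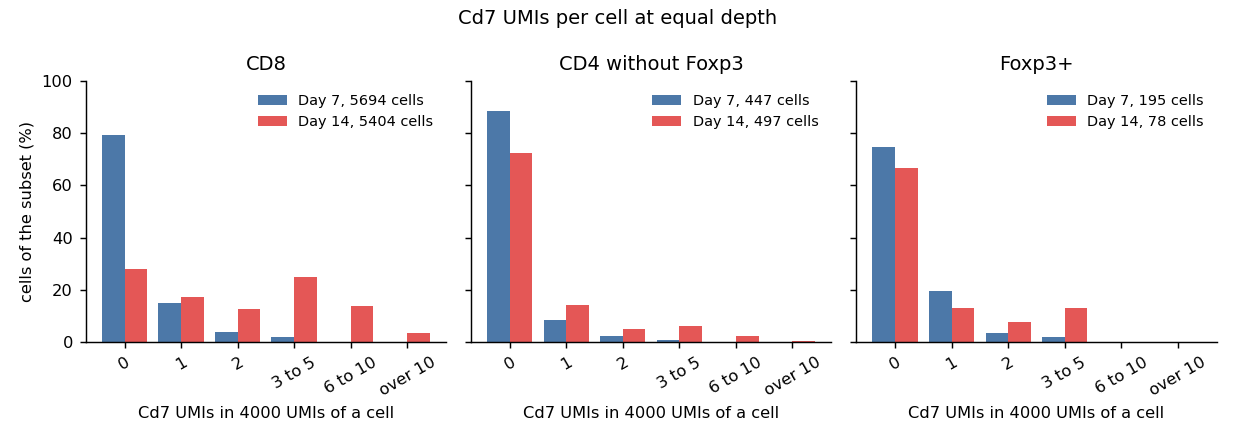
Percent of cells (y axis) by the number of Cd7 UMIs in a cell thinned to 4000 UMIs (x axis) in CD8, CD4 and Foxp3+ cells at day +7 and day +14. In CD8 cells the 0-UMI class holds 79.3% of cells at day +7 and 27.9% at day +14, while in CD4 cells it is the largest on both days (88.4% and 72.2%).

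CD4 cells carried less Cd7 than CD8 cells on both days, and the gap was wider at day +14. The 463 CD4 cells of day +7 held 161 Cd7 UMIs, or 33.8 CPM (28.8 to 39.4). The 697 CD4 cells of day +14 held 818 Cd7 UMIs, or 162 CPM (151 to 174), 4.81-fold higher (4.05 to 5.73). CD8 over CD4 was 1.59-fold (1.36 to 1.88) at day +7 and 3.78-fold (3.52 to 4.05) at day +14. In the CD8 over CD4 comparison, 0.858% of 6643 genes at day +7 and 0.749% of 7206 genes at day +14 were at least 2-fold higher in CD8 cells, and 1.46% and 2.66% were at least 2-fold lower. Cd7 was not among them at day +7, at rank 109, and was among them at day +14, at rank 17. In CD4 cells over time, 3.62% of 6997 genes were at least 2-fold higher at day +14 and 1.26% were lower, and Cd7 stood at rank 39.

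The thinned share of CD4 cells with Cd7 was 11.6% (8.81 to 15, n = 447 cells) at day +7 and 27.8% (23.9 to 31.9, n = 497 cells) at day +14. These shares were above those of other-lineage droplets on the same day. Over all 497 thinned CD4 cells of day +14, those without Cd7 included, the variance over mean was 4.14, with up to 17 thinned UMIs in a cell. The unthinned median depth of CD4 cells was 8228 UMIs at day +7 and 5355 at day +14. Transcripts of 9 neutrophil genes, among them S100a8, S100a9 and Ngp, came to 18.3 CPM in CD4 cells of day +7 and 910 CPM in those of day +14, when 1 of the 9, Ctsg, was at 0. In CD8 cells the same list summed to 583 and 661 CPM. The part of such RNA in the Cd7 level was not tested.

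**Figure D2:**
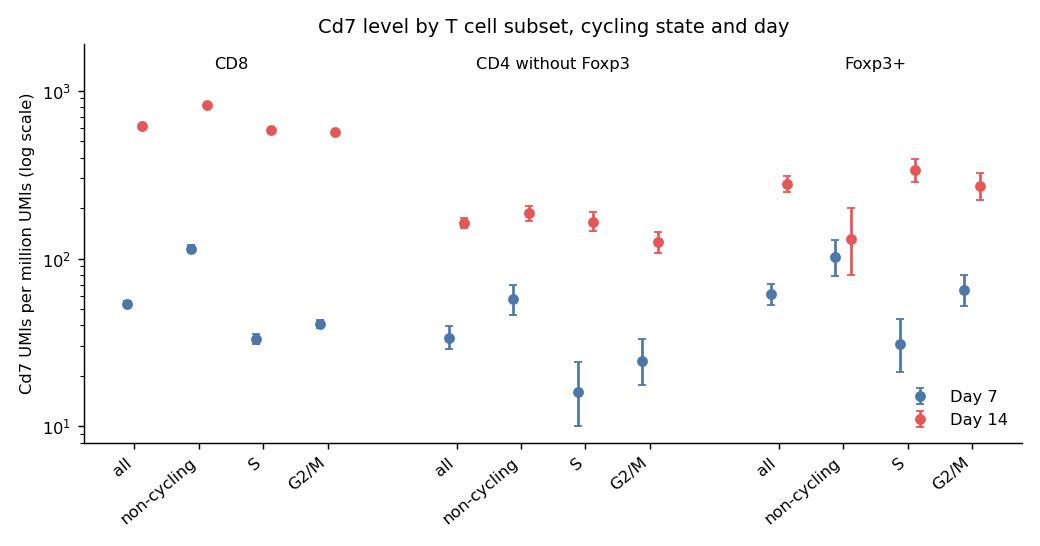
Cd7 level in CPM on a log axis for CD8, CD4 and Foxp3+ cells, all together and by cycling state, at day +7 and day +14; bars are exact Poisson 95% intervals. Each CD8 and CD4 group lies higher at day +14, while the intervals of non-cycling Foxp3+ cells overlap (102 CPM and 130 CPM).

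Foxp3 is the defining transcription factor of regulatory T cells. Foxp3+ cells had a Cd7 level near that of CD8 cells at day +7 and a lower one at day +14. The 200 Foxp3+ cells of day +7 held 188 Cd7 UMIs, or 61.4 CPM (52.9 to 70.8). The 90 Foxp3+ cells of day +14 held 296 Cd7 UMIs, or 279 CPM (248 to 313), 4.54-fold higher (3.77 to 5.48). CD8 over Foxp3+ was 0.877 (0.757 to 1.02) at day +7, an interval that holds 1, and 2.20 (2.0 to 2.47) at day +14. A single Foxp3+ cell of day +14 held 50 of the 296 UMIs. In thinned cells, which weigh each cell equally, the day ratio was 2.30-fold. The thinned shares were 25.1% (19.2 to 31.8, n = 195 cells) and 33.3% (23.1 to 44.9, n = 78 cells), intervals that overlap.

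The Foxp3+ group was mixed, and its makeup differed between the days. Of the 200 cells of day +7, 138 (69.0%) also met the CD8 rule, and these had 64.7 CPM of Cd7. A further 20 met the CD4 rule and had 58.7 CPM, and 42 met neither and had 50.2 CPM. Their intervals overlapped at day +7. Of the 90 cells of day +14, 30 (33.3%) met the CD8 rule and had 299 CPM (252 to 352). Another 46 met neither rule, a kind that takes in any cell with both Cd4 and Cd8 UMIs, and had 309 CPM (262 to 362). Of their 151 Cd7 UMIs, 50 were in 1 cell, and 18 of the 46 cells held any. Their mean of per-cell CPM was 193. The 14 that met the CD4 rule held 1 Cd7 UMI in all, or 11 CPM (0.278 to 61.1), an interval that overlaps the 64.5 CPM (48.9 to 83.6) of other-lineage droplets outside the CD8 and CD4 rules. These 14 had the highest Ikzf2 (Helios) and Ctla4 of the 3 kinds, at 1052 and 987 CPM, and Il2ra (CD25) at 263 CPM. Ikzf2, Ctla4 and Il2ra were at 710, 436 and 160 CPM in the 46 cells that met neither rule. In the 30 cells that met the CD8 rule they were at 258, 239 and 33.2 CPM. The 20 cells of day +7 that met the CD4 rule had 416, 259 and 264 CPM of them, beside 58.7 CPM of Cd7.

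At day +7 Cd7 was lower in cycling cells than in non-cycling cells. Cycling state came from the summed UMIs of 43 S-phase and 54 G2/M-phase genes, with cuts at 17.8 and 52.0 list UMIs per 10000. The share of classed cells near a cut was 7.83% at day +7 and 9.28% at day +14. Non-cycling CD8 cells had 114 CPM (109 to 120) at day +7, against 33.2 CPM (30.9 to 35.6) in S and 40.7 CPM (38.6 to 43.0) in G2/M. At day +14 the values were 820 CPM (803 to 838), 583 CPM (574 to 592) and 568 CPM (559 to 577). Non-cycling over cycling CD8 cells was 3.04-fold (2.85 to 3.24) at day +7 and 1.42-fold (1.39 to 1.46) at day +14. At day +7, 1.47% of 6537 genes were at least 2-fold higher in non-cycling CD8 cells and 8.14% were lower, and Cd7 was at rank 13 from the top. At day +14, 2.6% of 7082 genes were higher and 7.71% lower by that limit, and Cd7 was under it, at rank 974.

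The day ratio was larger in cycling cells. It was 7.18-fold (6.82 to 7.57) in non-cycling CD8 cells, 17.6-fold (16.3 to 18.9) in S and 13.9-fold (13.2 to 14.8) in G2/M. In thinned cells the cycling share with Cd7 went from 14.7% to 72.1%, and the non-cycling share from 31.7% to 72.3%. The intervals of the shares in cycling and non-cycling CD8 cells overlapped at day +14 and not at day +7. Among Foxp3+ cells of day +14 only 31 were non-cycling, and their thinned Cd7 share of 14.3% (3.05 to 36.3, n = 21 cells) had an interval that holds both background shares. In CD4 cells non-cycling over cycling was 2.76-fold (1.99 to 3.86) at day +7 and 1.28-fold (1.11 to 1.47) at day +14. After thinning, the day +14 log2 ratio in CD4 cells was 0.20 (-0.12 to 0.52), an interval that holds 0, and as a mean of per-cell CPM it was 0.12.

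Depth moved with these levels. CD8 cells were binned at the same UMI limits on both days. Non-cycling cells had 168 CPM in the shallowest bin and 102 CPM in the deepest at day +7, and 983 and 680 CPM at day +14. Cycling cells had 64.5 and 27.4 CPM at day +7, and 912 and 426 CPM at day +14. Every one of the 4 depth bins was higher at day +14 in both states, so the day difference was present at matched depth. The part of depth in the difference between cycling states was not tested.

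The makeup of the libraries differed between the days, and the ratio stayed near its value with that makeup held fixed. CD8 cells made up 80.4% of kept cells at day +7 and 74.6% at day +14, CD4 cells 6.45% and 8.94%, Foxp3+ cells 2.79% and 1.15%, and unclassified cells 12.3% and 15.7%. CD8 cells held 84.7% and 87.9% of all Cd7 UMIs. Over all kept cells the ratio was 10.7-fold. With the UMI shares of 12 subset and state groups held at their day +7 values it was 10.9-fold, and at their day +14 values 11.7-fold. Changing those shares alone at day +7 levels gave 0.913-fold.

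Within day +14, Cd7 differed between CD8 cells together with Ccl5. Ccl5 (RANTES) is a chemokine of effector and memory CD8 T cells, and Cd160 is a receptor of cytotoxic T and NK cells. Pearson's r was taken across CD8 cells of 1 library, all thinned to 4000 UMIs, on ln(1 + UMIs), and is a description with no p. Across the 5404 CD8 cells of day +14, Ccl5 had r = 0.399, the highest of 6328 genes. CD8 cells with Cd7 averaged 36.7 Ccl5 UMIs and those without averaged 22.9, a ratio of 1.60. AW112010 followed with r = 0.282 and Cd160 with r = 0.268, the latter 1.65-fold higher in Cd7-bearing cells. The other members of the highest 10 were H2-K1, Cd8a, B2m, Nkg7, Ifi27l2a, H2-D1 and Cd3g, with r from 0.164 to 0.210. H2-K1, H2-D1 and B2m encode the chains of MHC class I, and Nkg7 a protein of cytotoxic granules. At day +14, 0.948% of the genes had r of at least 0.1 and 0.901% had r of at most -0.1.

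At the low end of day +14 stood 1500009L16Rik (r = -0.180), Capg (-0.176), Rasgrp2 (-0.167), Dnajc15, Nme2, Tagln2, Lgals3, Ybx1, Lgals1 and Eif5a (-0.147). Capg, an actin-capping protein, averaged 0.233 UMIs in Cd7-bearing CD8 cells and 0.465 UMIs in the others. Lgals1, which encodes the CD7 ligand galectin-1, averaged 15.6 and 17.3 UMIs, with r = -0.152. These r values were weak, and in sparse counts they are no more than a description.

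Most of the highest and lowest genes of day +7 were others, though 79.3% of CD8 cells had 0 thinned Cd7 UMIs that day, against 27.9% at day +14. Across 5694 CD8 cells the highest r values were those of Fau (0.155), Ltb (0.137), Hcst, Rpl37a, Rps27, Gm42418, AW112010, Tpt1, Cd52 and AY036118 (0.116). Fau, Rpl37a and Rps27 encode ribosomal proteins. The lowest were Ptma (-0.213), Tuba1b (-0.196), Pclaf, Hmgb2, Ube2s, Dut, H2afz, Ranbp1, Anp32b and Hist1h1b (-0.160), most of them genes of DNA replication, chromatin or mitosis. At day +7, 0.38% of 5791 genes had r of at least 0.1 and 1.47% had r of at most -0.1. Of the G2/M list, 14 of 46 measured genes were at or under -0.1 at day +7, and 2 of 50 at day +14. Of the 50 highest genes of each day 12 were shared (24%), and of the 50 lowest 19 (38%), which is the same share of each list. In all, 5671 genes were measured on both days, of which 50 are a far smaller share than 24% or 38%. In non-cycling CD8 cells, with 5389 genes measured on both days, 1 of the 50 highest and 1 of the 50 lowest were shared (2%).

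**Figure D3:**
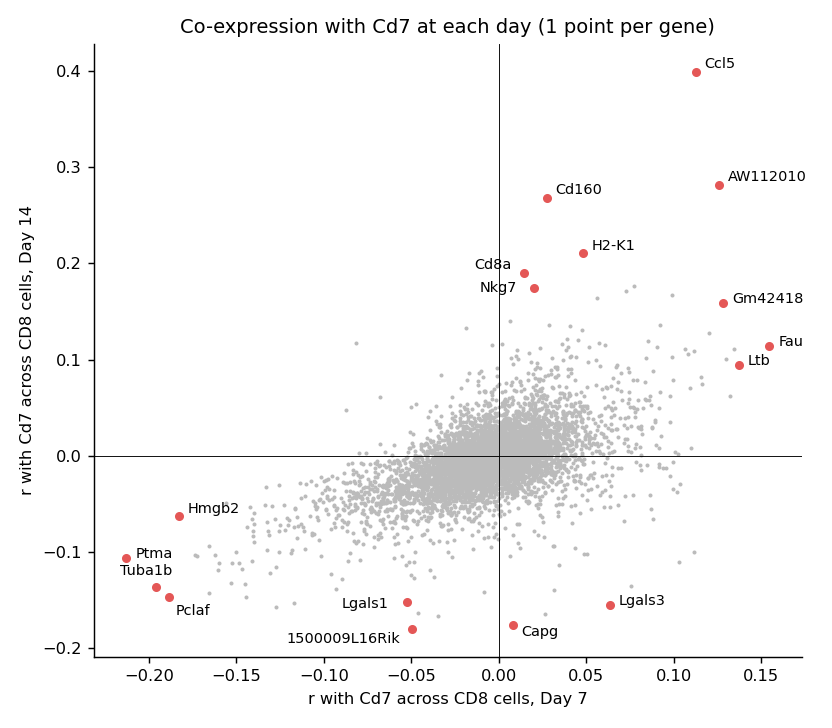
Pearson's r with Cd7 across CD8 cells at day +7 (x axis) and day +14 (y axis) for the 5671 genes measured on both days, each point a gene. Ccl5 (0.113 and 0.399) and Cd160 (0.0274 and 0.268) stand out on the day +14 axis, while Ptma (-0.213) is lowest on the day +7 axis.

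The r values in non-cycling CD8 cells alone were near 0 at day +7, and several were not at day +14. Cd7 was sparser there at day +7, with 0 UMIs in 68.3% of thinned cells and at most 5 in any cell. At day +14 the values were 27.7% and 22 UMIs. The part of this sparseness in the r values of day +7 was not tested. Over 2004 non-cycling cells of day +7, r ranged from -0.0938 to 0.101, and 0.018% of 5553 genes had r of at least 0.1. Over 1455 non-cycling cells of day +14, Ccl5 had r = 0.289, Cd160 r = 0.287 and AW112010 r = 0.239, and 0.768% of 6123 genes had r of at least 0.1. Cd8a, a marker used to choose these cells, had r = 0.186 there. Genes of stem-like and memory T cells sat at the low end, with 6 of 7 measured at or under -0.1 against 0.784% of all genes. They were Klf2 (-0.162), S1pr1 (-0.146), Id3 (-0.125), Slamf6 (-0.117), Tcf7 (-0.108) and Il7r (-0.106). Xcl1, a chemokine of CD8 T cells, had r = -0.141.

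Binning CD8 cells by their Ccl5 count shows the size of this relation. Mean Cd7 in the bins of 0, 1 to 5, 6 to 20 and over 20 thinned Ccl5 UMIs was 0.217, 0.260, 0.284 and 0.417 UMIs per cell at day +7. At day +14 it was 0.498, 1.10, 2.33 and 3.89 UMIs per cell. Mean Cd7 was thus higher in each further Ccl5 bin on both days, with the larger steps at day +14. The ratio between the days was 2.30-fold (1.86 to 2.83) in cells without Ccl5 and 9.31-fold (8.54 to 10.2) in cells with over 20 Ccl5 UMIs. In non-cycling cells the day +7 values had no such order, at 0.529, 0.458, 0.399 and 0.500, while those of day +14 were 0.750, 1.32, 2.58 and 3.86.

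Ccl5-rich cells were also more frequent at day +14. Cells with over 20 Ccl5 UMIs were 22.8% of CD8 cells at day +7 and 49.5% at day +14, and cells with none were 28.8% and 4.57%. With the day +7 mix of Ccl5 bins on both days, the thinned CD8 ratio was 6.34-fold, against 9.86-fold observed, and with the day +14 mix it was 8.28-fold. At day +14 Cd7 also differed with Cd160 among CD8 cells split at 5 Ccl5 UMIs. Cells with over 5 Ccl5 UMIs had 3.88 Cd7 UMIs per cell (3.80 to 3.95) with Cd160 and 2.35 (2.27 to 2.42) without. Those with 5 or fewer had 1.15 (1.06 to 1.24) with Cd160 and 0.742 (0.666 to 0.823) without. The over-5 group joins the bins of 6 to 20 and over 20 Ccl5 UMIs, with Cd7 means of 2.33 and 3.89. Ccl5 was thus not matched within it, and its part in the Cd160 difference was not tested.

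A like order was seen in CD4 cells of day +14 and in Foxp3+ cells of both days, and was not resolved in CD4 cells of day +7. At day +14 CD4 cells had 0.120, 0.528, 0.719 and 1.53 Cd7 UMIs per cell over the 4 Ccl5 bins. The Cd7 share of CD4 cells without Ccl5 was 11.3%, which lies within the interval of other-lineage droplets (2.59 to 17.3% for those outside the CD8 and CD4 rules), so it cannot be told apart from background. At day +7 the CD4 bins held 0.140, 0.202, 0.10 and 0.241 UMIs per cell, with 29 to 279 cells a bin. Their intervals overlapped, at 0.0206 to 0.292 for 6 to 20 Ccl5 UMIs and 0.097 to 0.497 for over 20. In CD4 cells of day +14, r was 0.383 for Ccl5, 0.246 for Nkg7 and 0.166 for Cd160, over 497 cells, where 2.92% of 6538 genes had r of at least 0.1 and 2.42% had r of at most -0.1. Over the 447 CD4 cells of day +7 these shares were 3.19% and 2.77% of 5887 genes. In Foxp3+ cells of day +14 the 9 cells without Ccl5 held no Cd7 UMI after thinning, which allows up to 0.410 UMIs per cell, and the 14 cells with over 20 Ccl5 UMIs averaged 2.21 (1.5 to 3.14). Foxp3+ cells of day +7 had 0.205, 0.308, 0.516 and 0.909 UMIs per cell over the bins, with 88, 65, 31 and 11 cells.

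**Figure D4:**
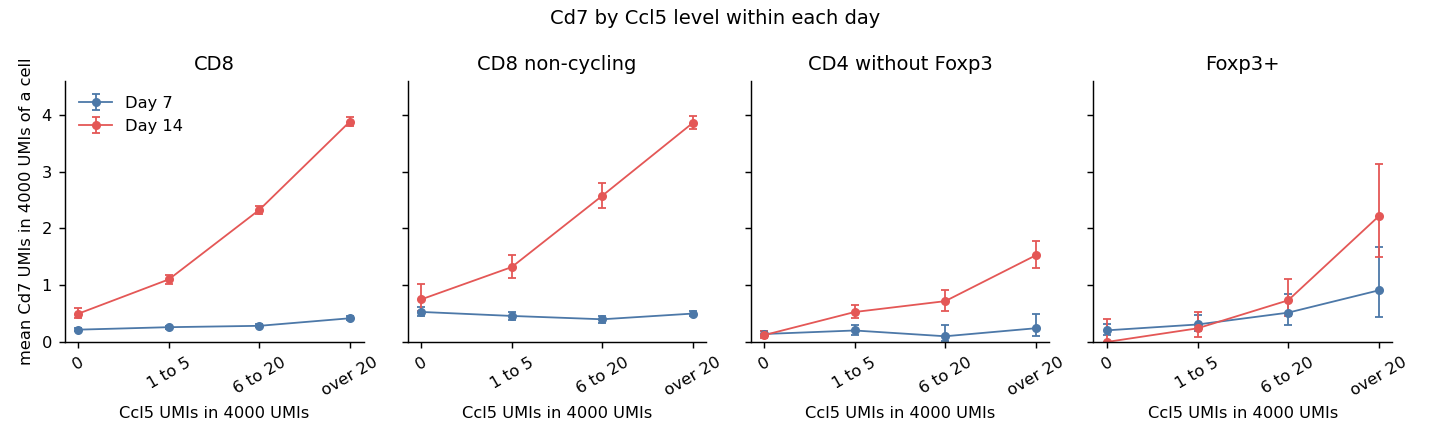
Mean Cd7 UMIs per cell thinned to 4000 UMIs (y axis) by thinned Ccl5 UMIs in the same cell (x axis) in CD8, non-cycling CD8, CD4 and Foxp3+ cells of each day; bars are exact Poisson 95% intervals. At day +14 the CD8 means go from 0.498 to 3.89, while in non-cycling CD8 cells of day +7 they go from 0.529 to 0.500.

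Of the known partners and signalling genes of CD7, those that passed 10 CPM in CD8 cells showed no change of its size. Sectm1b had no UMI in CD8 cells on either day. Sectm1a had 3 and 13 UMIs, a log2 ratio of 2.21 (0.34 to 4.66) whose interval holds the 3.51 of Cd7. For both Sectm1 genes the counts were thus too few to size a change, and their levels in other cells were not read. Lgals1 stood at 5920 and 3878 CPM in CD8 cells of the 2 days, a log2 ratio of -0.61. Of the PI3K and Akt genes that passed the 10 CPM limit, Pik3r1, Pik3ca, Pik3cd and Akt1 had log2 ratios of 0.05 to 0.58. None of the 5 ligand and signalling genes measured was 2-fold higher or lower, against 1.85% higher and 1.39% lower of all genes, whose median log2 ratio was 0.18.

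Among other surface and effector genes, 8 list members were at least 2-fold higher at day +14 in CD8 cells and 8 were lower. These were of 72 measured over all lists, with the ligand and signalling genes included. Over all 6850 genes the shares were 1.85% higher and 1.39% lower, for this count and for each list below. Of 23 further T cell surface genes, Cd160 was higher (128 and 263 CPM) and Cd69, an early activation marker, was lower (73.0 and 32.4 CPM), while the list's median log2 ratio was 0.07. Of 15 NK-type and intraepithelial genes, 4 were higher, namely Cd160, Xcl1 (32.0 and 110 CPM), Ccl5 (2446 and 6217 CPM) and Ikzf2 (17.9 and 86.3 CPM). Fcer1g (174 and 24.5 CPM), the Fc receptor gamma chain, and Itga1 (33.4 and 8.99 CPM), an integrin of tissue-resident cells, were lower. NK-type genes thus differed between the days in both directions.

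Of 8 cytotoxic genes none was higher and 3 were lower, namely the granzymes Gzma (3842 and 259 CPM), Gzmb (1532 and 551 CPM) and Gzmc (27.1 and 2.97 CPM). Of 7 stem-like genes, the receptors Il7r (47.7 and 8.50 CPM) and S1pr1 (99.1 and 43.1 CPM) were lower. Of 8 inhibitory-receptor and exhaustion genes, Tox (66.3 and 215 CPM) and Nr4a2 (37.4 and 108 CPM), both transcription factors, were higher. Of 10 effector and memory factors, Eomes (21.1 and 91.2 CPM) and Zeb2 (12.3 and 26.7 CPM) were higher. Cd7 had a higher ratio of day +14 over day +7 than each of these 72 list members. It was selected for that ratio, so its place is a description. Gzma was lower by a larger factor, at a log2 ratio of -3.89 against 3.51 for Cd7. When genes were scaled by the median ratio, all log2 ratios were 0.21 lower, Cd160 and Zeb2 were no longer 2-fold higher, and Klrc1 became 2-fold lower, which left 6 higher and 9 lower.

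The protein-coding genes next to Cd7 on the chromosome were also read. Of the 10 on each side, 8 passed the 10 CPM limit in CD8 cells. Only Slc16a3, which encodes a lactate transporter and lies 77.7 kb away on the other strand, was at least 2-fold higher, with 8.97 and 51.1 CPM on the 2 days. Its log2 ratio was 2.51 (2.39 to 2.64). Over all 6850 genes that passed the limit, 1.85% were at least 2-fold higher and 1.39% lower. The nearer Csnk1d, 45.4 kb away, was at 0.48, and the other 6 (Gps1, Dus1l, Fasn, Cybc1, Narf and Foxk2) were between 0.05 and 0.62. Across CD8 cells of day +14, Slc16a3 had r = -0.0070 with Cd7.

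**Figure D5:**
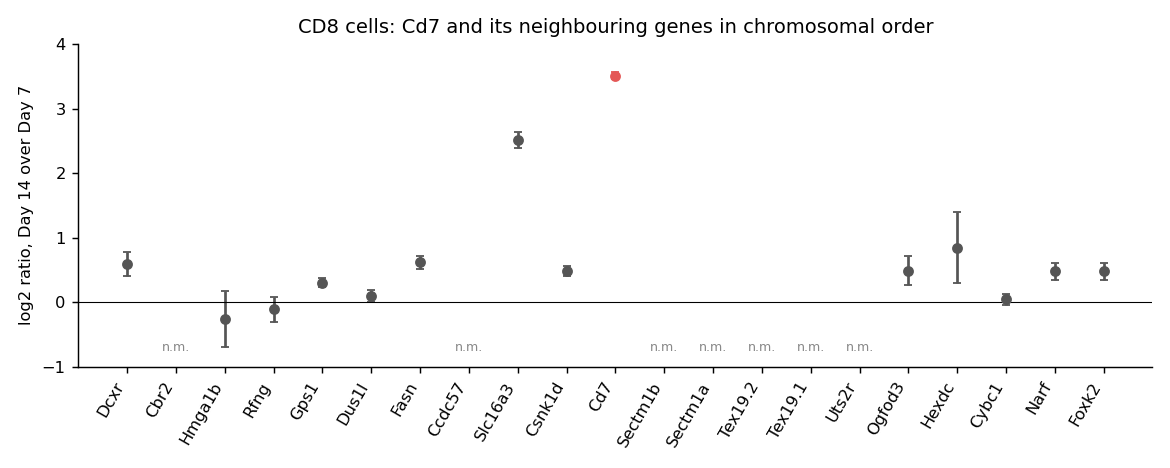
Log2 ratio of day +14 over day +7 in CD8 cells (y axis) for Cd7 and its neighbours, with exact 95% counting intervals. The neighbours are the 10 annotated protein-coding genes on each side, in chromosomal order (x axis). The mark n.m. stands for genes with under 50 UMIs over both days. Cd7 (3.51) and Slc16a3 (2.51) stand above all the other measured neighbours.

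The genes whose level was most like that of Cd7 over groups were also ranked. Pearson's r of log2(CPM + 1) was taken over 15 groups of subset, cycling state and day with at least 50 cells, for 6919 genes. The 10 highest were Baiap3 (0.953), Sh2d2a (0.935), Elk3 (0.930), Akr1a1 (0.918), Fars2 (0.916), 1600014C10Rik (0.913), Myh9 (0.910), Ap3b1 (0.901), Eef2 (0.898) and Map3k1 (0.896). The groups share 2 libraries, and some share cells. Baiap3 was at 18.9 CPM in non-cycling CD8 cells and 7.24 CPM in CD4 cells in S at day +7, and at 35.4 CPM and 15.8 CPM at day +14. Within the groups of each day taken alone, Baiap3 was the only one of the 10 with r of at least 0.9. Its r was 0.945 over 9 groups of day +7 and 0.929 over 6 groups of day +14. It ranked 21 and 74 there, so other genes were closer to Cd7 within a day. The others of the 10 ranked 119 to 1655 at day +7 and 55 to 1468 at day +14. The r over 15 groups also holds the day difference on which Cd7 was selected. Sh2d2a, a T cell adaptor, also had r = 0.133 across single CD8 cells of day +14, and Baiap3 had r = 0.0815 there.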

How the data were processed

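Splenic donor T cells were measured by scRNA-seq in 2 libraries, 1 at day +7 and 1 at day +14. The day was taken from the sample titles and the series design, since the labels' sorting text names day +7 for both. The deposited values are UMI counts per gene and barcode, which the authors made with Cell Ranger 6.1.2 on mm10 (per the submitters' processing notes) and deposited filtered for cell-containing barcodes, with no normalization. The reagent chemistry is not given in the sources used here. The authors removed doublets with Scrublet in their own analysis. Here doublets were left in, and leaving out the highest Scrublet scores was an alternative.

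Of 7355 and 8043 barcodes, 176 and 249 failed the limits on detected genes (500 to 7500) or mitochondrial UMIs (15%). UMIs were summed over cells and divided by the group's total. Levels carry exact Poisson intervals, shares Clopper-Pearson intervals and ratios exact conditional binomial intervals, all at 95% and for counting error only. With no replicate, no test across samples exists and no p is printed. A droplet was of another lineage with at least 20 UMIs of that lineage's markers and over 5 times its T lineage UMIs. Cut-offs for cycling were set by Otsu's method on both libraries pooled. Co-expression used genes detected in at least 5% of the cells. The position, transcripts and overlap of Cd7 and the strands of genes came from GENCODE vM21 for the same build. Neighbours and their positions came from RefSeq, with protein-coding genes only. Cd7, the gene lists and the comparisons were chosen with earlier results of these data known. The genes named are Cd7, the list members, its 10 neighbours on each side, the 10 highest and 10 lowest r of each day in CD8 cells and the 10 highest across groups. The genes given by r in non-cycling CD8 or CD4 cells belong to those sets. Alternatives covered scaling, depth, barcode filters, subset rules, phase calls and correlation measures. Calculations ran in Python 3.11.15 with numpy 2.4.6, scipy 1.17.1, pandas 2.3.3 and scanpy 1.11.5, TMM factors came from edgeR 4.0.16 in R 4.3.3, and the calculations were tested on simulated data.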

Additional observations from a re-analysis of the deposited data

Results flagged for a closer look

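Cd7 was also found among barcodes that the filters left out. The 176 barcodes left out at day +7 held 14 Cd7 UMIs, a level of 36.9 CPM (20.2 to 61.9), and 1.70% of these barcodes had one. A single barcode held 11 of the 14 UMIs, and the mean of per-barcode CPM was 7.02. The 249 barcodes left out at day +14 held 228 Cd7 UMIs, a level of 536 CPM (468 to 610), and 35.7% had one. Their median depths were 901 and 1005 UMIs. At day +14 the level in these barcodes was close to the 548 CPM of kept cells, and both were above the 117 CPM of other-lineage droplets. Keeping all barcodes left the CD8 log2 ratio between the days at 3.51.

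The difference between non-cycling and cycling Foxp3+ cells had opposite signs on the 2 days. Non-cycling Foxp3+ cells had 102 CPM of Cd7 and cycling ones 50.3 CPM at day +7, a log2 ratio of 1.02 (0.57 to 1.46). At day +14 they had 130 CPM and 304 CPM, a log2 ratio of -1.22 (-1.95 to -0.57). Without the highest Scrublet scores the day +14 value was -0.57 (-1.33 to 0.12), and after thinning the day +7 value was 0.68 (-0.07 to 1.43), both intervals that hold 0. The difference between the days was not tested, since each day is 1 library. The non-cycling value of day +14 rests on 20 UMIs in 31 cells, and 1 cycling Foxp3+ cell of that day held 50 of 276 UMIs.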

How the results depend on the processing

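For 28 values or counts, 126 alternatives were computed, of which 1 reversed a sign and 85 stayed within the 95% interval of the value (or within 1.5 times a count). The CD8 log2 day ratio of 3.51 became 3.30 with median-ratio scaling, 3.31 with TMM, 3.39 as a mean of per-cell CPM, 3.30 after thinning and 3.57 with stricter CD8 and CD4 rules. The Foxp3+ ratio of 2.18 became 1.42 per cell, 1.20 after thinning and 1.52 without the highest Scrublet scores. The next alternatives were chosen after seeing the data. The Foxp3+ ratio was 2.02 without the cell with the most Cd7 UMIs of each day, 2.26 with at least 2 Foxp3 UMIs and 2.32 without cells that met the CD8 rule. The CD8 ratio was 3.51 without barcodes found in both libraries. CD8 over CD4 at day +14, 1.92 on the log2 scale, became 2.07 after thinning. Non-cycling over cycling CD8 cells, 1.60 at day +7, became 1.40 per cell and 1.35 after thinning. The same ratio at day +14, 0.51, became 0.59 with scanpy phases, 0.35 per cell and 0.33 after thinning. CD8 shares with Cd7 of 20.7% and 72.1% became 11.8% and 59.0% at 2000 UMIs and 36.2% and 83.0% with all UMIs. The composition-fixed log2 ratio of 3.44 became 3.55 with the day +14 makeup. The 22 genes with r of at least 0.1 at day +7 became 1 in non-cycling cells and 71 at full depth. At day +14 Ccl5's r of 0.399 became 0.289 in non-cycling cells, and Cd160's r of 0.268 became 0.321 at full depth. Ccl5's r at day +7, 0.113, became -0.0097 in non-cycling cells. Of the 10 genes most like Cd7 over groups, 4 were among the 10 highest with a limit of 50 CPM and 5 by Spearman's rho. The causes of these shifts were not tested.

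No paired analysis was possible because each day is 1 library. Leaving out a replicate was not possible for the same reason. The intervals say nothing of animals, and a library effect cannot be told apart from time. Cells with few UMIs limit the per-cell reading of Cd7, since the CD8 share at day +7 varied with the depth used.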
